A study of Mus musculus with 16 samples.

Results

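The genes described here are the mouse type 2 lineage genes Gata3, Il4, Il13, Il4ra and Il1rl1, together with the cytokine gene Il9. They were taken as a list of 6 names and were matched by gene identifier in a table of 15571 genes. All 6 were among the 14985 genes tested. The list was chosen by name with earlier results of these data known, among them the level of Il9 in knockout cells. That level was 29.3 ± 13.8 CPM (counts scaled to library size) without acetate and 2.61 ± 1.48 CPM with it (SD, n = 4 each). That contrast, and the difference of acetate responses that holds it, are given for Il9 as a description with no test. Comparisons of Il9 between a knockout and a wild-type group also use these known levels, so their p-values do not allow for that choice. The p-values of the other genes do not allow for a list chosen with earlier results known.

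The cells were Th17 cultures, helper T cells grown under conditions that favour IL-17 production, with 16 RNA sequencing libraries in 4 groups of 4. Both genotypes carried floxed PDH alleles (PDHfl/fl, written PHD in the sample titles), which encode pyruvate dehydrogenase, the mitochondrial enzyme complex that makes acetyl-CoA from pyruvate. The wild-type (WT) groups carried no Cre, and the knockout (KO) groups also carried CD4 Cre, a transgene active from T cell development onwards. No Cre group without floxed alleles and no sodium salt control is named among the samples. Naive CD4+ T cells from spleen and lymph nodes were cultured for 3 days with TGFβ (2 ng/mL) and IL-6 (30 ng/mL), an antibody to IFNγ (5 µg/mL), and stimulation by anti-CD28 (1 µg/mL) and plate-bound anti-CD3 (5 µg/mL). The culture description names no antibody to IL-4. One group of each genotype also received 10 mM sodium acetate throughout, which cells can convert to acetyl-CoA outside the pyruvate dehydrogenase step, and the groups are called untreated or acetate after the genotype (WT untreated, WT acetate, and likewise for KO). The labels do not say whether the libraries of a group came from separate animals, and p-values then cover only library-to-library spread, which may be technical.

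Type 2 immunity is the arm of helper T cell responses directed at parasites and involved in allergy. In Th2 cells the transcription factor GATA3 opens and activates the linked genes of IL-4 and IL-13, IL-4 signals back through its receptor (the IL-4Rα chain, encoded by Il4ra) and STAT6, and the IL-33 receptor ST2, encoded by Il1rl1, lets tissue alarm signals amplify the response. IL-9 is a growth factor for mast cells and other cells that is made by Th9 cells, and T cells cultured with TGFβ can also make it, while TGFβ holds GATA3 in check.

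The promoters of the 4 genes whose transcripts varied most between groups on the log2 scale are shown. Each is given as the 250 bases before the transcription start in the RefSeq annotation of build GRCm38.p6. All 6 genes matched RefSeq promoter entries, with 8 starts between them. The Il9 window lies at chr13:56482258-56482507 on the minus strand, that of Il13 at chr11:53634703-53634952 on the minus strand, the second start of Il4 at chr11:53618666-53618915 on the minus strand and the first start of Il1rl1 at chr1:40429320-40429569 on the plus strand. Capitals mark a STAT word (TTCNNNNGAA) and an AP-1 word (TGANTCA) in Il9, a GATA word in Il13, a STAT word in Il4 and the GATA words in Il1rl1.
Il9: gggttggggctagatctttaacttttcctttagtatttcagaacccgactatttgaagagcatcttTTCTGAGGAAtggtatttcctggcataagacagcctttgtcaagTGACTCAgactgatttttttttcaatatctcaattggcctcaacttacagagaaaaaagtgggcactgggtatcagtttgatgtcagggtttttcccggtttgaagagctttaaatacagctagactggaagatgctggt
Il13: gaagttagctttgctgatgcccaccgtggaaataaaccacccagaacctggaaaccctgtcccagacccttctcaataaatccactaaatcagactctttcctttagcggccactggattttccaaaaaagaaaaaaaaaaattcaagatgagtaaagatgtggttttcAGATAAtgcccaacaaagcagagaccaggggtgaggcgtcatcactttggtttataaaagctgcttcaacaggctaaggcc
Il4: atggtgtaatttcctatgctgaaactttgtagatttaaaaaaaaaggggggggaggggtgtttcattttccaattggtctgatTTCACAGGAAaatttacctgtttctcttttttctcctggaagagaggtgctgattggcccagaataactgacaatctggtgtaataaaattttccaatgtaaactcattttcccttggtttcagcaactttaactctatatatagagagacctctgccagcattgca
Il1rl1: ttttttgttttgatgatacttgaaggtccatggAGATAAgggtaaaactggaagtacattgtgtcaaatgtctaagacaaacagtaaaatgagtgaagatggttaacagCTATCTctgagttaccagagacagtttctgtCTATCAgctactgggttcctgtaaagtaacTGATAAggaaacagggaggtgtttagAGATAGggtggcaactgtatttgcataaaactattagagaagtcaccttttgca
The GATA words searched were AGATAA or TGATAA or AGATAG or TGATAG on both strands, and 26.5% of 32851 RefSeq windows of this length held at least 1. The Il1rl1 window held 5 of them, between positions −217 and −49, where −1 is the base before the start, and the Il13 window held 1, whose first base is at −81. The STAT word with a spacing of 4 was in 5.85% of windows and began at −184 in the Il9 window and at −167 in that of Il4. The AP-1 word was in 6.75% of windows and began at −140 in the Il9 window. The NFAT core TGGAAA, found in 18.6% of windows, occurred 3 times in the Il13 window and 2 times in that of Il4, where it is not in capitals. The other starts, not printed, held 1 GATA word each, at −80 for the first start of Il4, whose window held no STAT or NFAT word, and at −103 for the second of Il1rl1. The windows of Gata3 and Il4ra held none of these words, nor TTCNNNGAA. These are matches of letters and no binding was measured.

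The RNA sequencing libraries held 24571177 to 33723470 estimated counts. Levels are given as CPM, the counts of a gene scaled to a common library size that the TMM method adjusts, and because gene lengths were not used, levels of different genes are not compared. A single unnamed gene took over 3% of the counts in 4 libraries, namely KO untreated 1 (9.14%), KO acetate 2 (7.995%), WT untreated 1 (5.89%) and KO untreated 2 (3.27%). Calls of the 6 genes that change without them are given both ways. Counts over the gene lists, and the shares of all genes beside them, are given with all libraries unless stated. Some of these differ without those 4. The 7 T cell markers summed to between 2629 and 2716 CPM in WT untreated libraries and between 2273 and 2489.7 CPM in KO untreated ones. With acetate they summed to between 2259 and 2453 CPM. Without acetate, 4 of the 7 were called lower in KO than in WT, where 36.6% of all genes were called in either direction. The part of that difference in the results was not tested. The 8 Th17 markers summed to between 662 and 1143 CPM without acetate and between 1293 and 2864 CPM with it. The labels do not name the floxed subunit. Pdha1, which encodes a subunit of the complex, averaged 247 ± 12.6 CPM (SD, n = 4) without Cre and 225 ± 11.5 CPM with it in untreated cells (edgeR adjusted p = 0.0761), so these counts do not check the deletion and the genotypes are those of the labels.

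Of the 6 genes, 4 differed between KO and WT without acetate, where Il9 and Il1rl1 were higher and Il4ra and Gata3 lower in KO. The list was chosen with earlier results known, among them the KO level of Il9, so this count is not independent of that choice. A gene is called different here where edgeR's quasi-likelihood test gave a Benjamini-Hochberg adjusted p under 0.05 over all genes tested, and 36.6% of all genes were called in this comparison, so 4 of 6 is read against that share. The libraries of the groups did not overlap for Il9, Il4 and Il4ra, as they did not for 36.0% of all genes. With acetate in both genotypes, 0 of the 6 genes were called by edgeR and 0 by DESeq2, 0 had an unadjusted p under 0.05 in edgeR, and 1.00% of all genes were called. There the libraries of KO and WT overlapped for all 6 genes, while 9.36% of all genes had groups apart. Acetate raised Il13 in both genotypes, with a call in WT cells that was lost in 8 of 23 alternative analyses. In WT cells Il13 was the 1 gene called of 6, against 15.4% of all genes. In KO cells Il13 and Gata3 were called of the 5 genes given a test, against 43.7% of all genes, and of these 5 the libraries of Il13 lay apart, as did those of 37.7% of all genes. Between KO acetate and WT untreated cells, Il13 was higher and Il4ra lower, 2 of 6 against 26.4% of all genes, and the libraries of Il13 and Il1rl1 lay apart, 2 of 6 against 28.4%. A difference between the acetate responses of the genotypes was not detected for the 5 genes given a test (0 called by edgeR and 0 by DESeq2, 0 at an unadjusted p under 0.05 in edgeR, with 11.9% of all genes called). The median log2 fold change of the 6 genes was 0.70 for KO over WT without acetate, against 0.014 over all genes tested. No gene lay near that median. Gata3, Il4ra and Il13 had −0.38, −0.31 and −0.028, and Il1rl1, Il4 and Il9 had 1.43, 1.48 and 2.26.

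**Figure D1:**
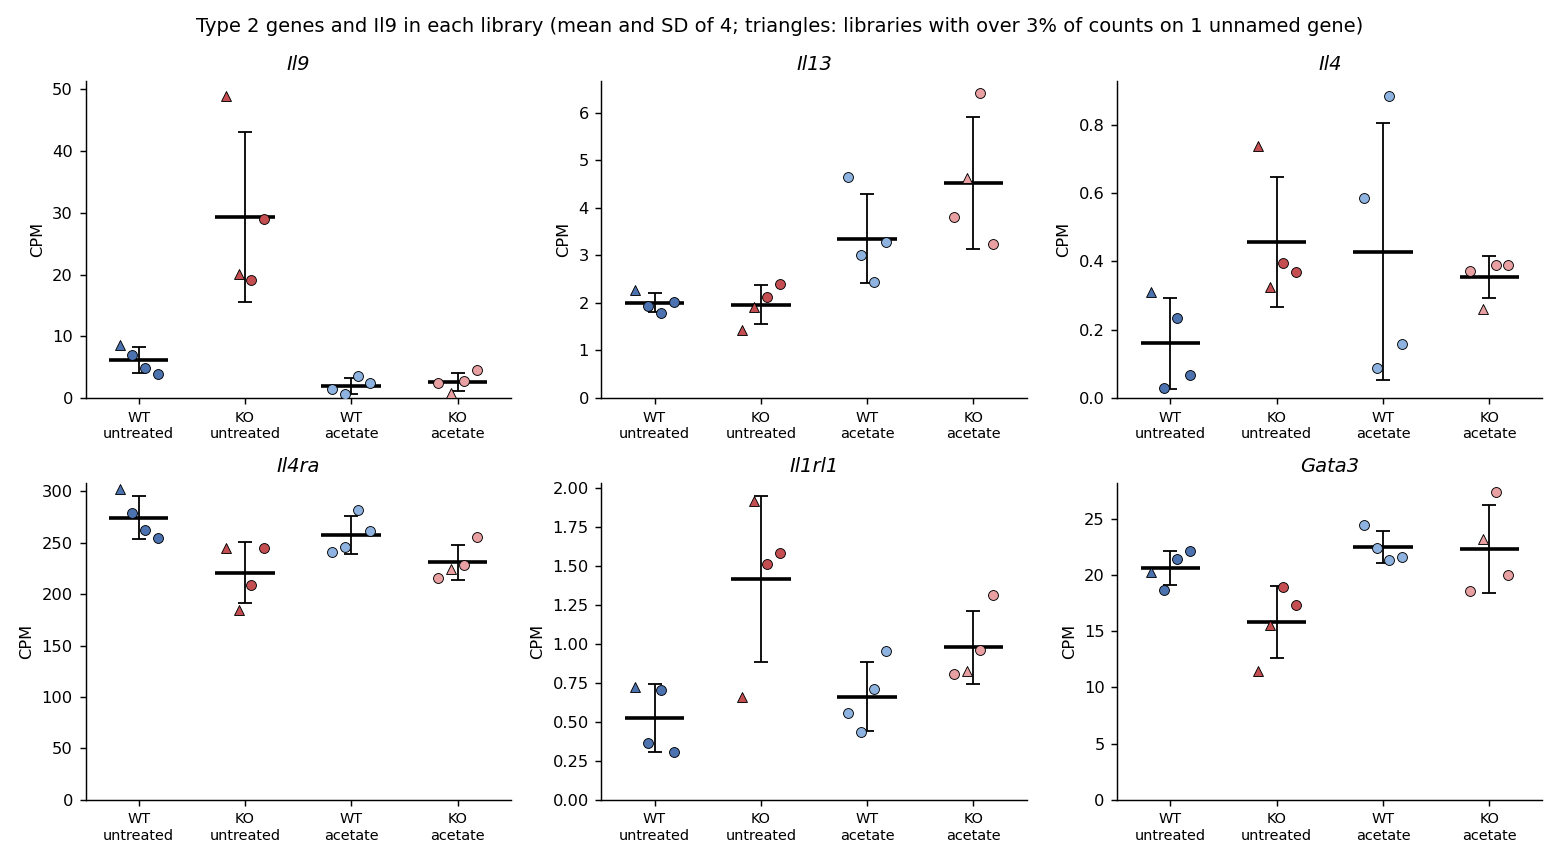
CPM of each gene in each library (points), with the mean (bar) and SD (whisker) of the 4 libraries of a group, on axes that start at 0. Triangles are the 4 libraries with over 3% of counts on 1 unnamed gene. Il9 stood highest in the KO untreated libraries (19.2 to 48.9 CPM), and Il13 was higher in both acetate groups (2.45 to 6.42 CPM) than in both untreated groups (1.44 to 2.39 CPM).

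Il9, the growth factor gene, ranged from 0.577 to 48.9 CPM over the 16 libraries. Its level was 8.63, 6.91, 4.91 and 3.95 CPM in WT untreated libraries 1 to 4 and 48.9, 20.1, 19.2 and 29.0 CPM in KO untreated libraries 1 to 4. Every KO untreated library was above every WT untreated library. The group means were 6.10 ± 2.09 CPM and 29.3 ± 13.8 CPM (SD, n = 4 each), a 4.80-fold higher level in KO (95% interval 2.28 to 10.1, log2 fold change 2.26, SE 0.496, edgeR adjusted p = 0.00337). The KO level was known when Il9 was listed, and this p-value does not allow for that. The call was kept in all 23 alternative analyses run, with log2 fold changes from 1.90 to 2.47. The highest library, KO untreated 1, is also the one with the largest share of counts on the unnamed gene. Without the 4 libraries of that kind the means were 5.40 CPM in 3 WT libraries and 24.7 CPM in 2 KO libraries, and the log2 fold change was 2.19.

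With acetate, Il9 was at 1.40, 0.577, 3.63 and 2.38 CPM in WT libraries 1 to 4 and at 2.43, 0.860, 2.69 and 4.47 CPM in KO libraries 1 to 4. Both acetate groups overlapped each other, and the KO acetate libraries lay entirely below the KO untreated ones. The fitted difference between KO acetate and KO untreated was −3.48 on the log2 scale (SE 0.538), which is 0.0897 of the untreated level, and −2.92 without the 4 libraries named above. In WT cells the acetate libraries also lay below all untreated ones, a separation in either direction that 21.3% of all genes showed, and the log2 fold change was −1.62 (SE 0.546). That difference did not pass the test in edgeR (adjusted p = 0.0649), passed in DESeq2 (−1.61, adjusted p = 0.0250), and passed in edgeR without WT acetate 3 (−2.12, adjusted p = 0.0332). The acetate response was larger by 1.86 log2 units in KO cells as fitted (interaction −1.86, SE 0.756), given with no test. In order of level the groups were KO untreated, WT untreated, KO acetate and WT acetate. KO acetate against WT untreated had a log2 fold change of −1.22, which did not pass the test after adjustment (edgeR adjusted p = 0.113). Its 95% interval before adjustment held only negative values (−2.37 to −0.059), and the libraries of these groups overlapped. The 2 acetate groups did not differ past the test (0.40, 95% interval −0.85 to 1.65, edgeR adjusted p = 0.764). In bulk RNA, fewer cells that transcribe a gene and less RNA per cell cannot be told apart.

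Of 6 tested markers of mast cells and basophils, which respond to IL-9, 1 (Kit) was higher in KO without acetate and lower with acetate in KO, the signs of Il9, and the others were called in neither. Of all genes, 36.6% were called in the first comparison and 43.7% in the second. The 7 of 10 such markers in the table summed to between 6.57 and 8.06 CPM in KO untreated libraries and between 3.19 and 5.73 CPM in all others. The list had a median log2 fold change of 0.23 with acetate in WT cells, where Il9 had −1.62. Kit, the stem cell factor receptor gene, averaged 0.895 ± 0.165 CPM without acetate in WT, against 3.42 ± 1.02 CPM in KO cells, and 1.05 ± 0.382 and 1.28 ± 0.346 CPM with it. Kit was higher in KO without acetate (edgeR adjusted p = 5.18e-05, log2 fold change 1.93, SE 0.288) and lower in KO cells with acetate (−1.41, SE 0.282, adjusted p = 0.000489). Hdc, which encodes the enzyme that makes histamine, averaged 0.722 ± 0.170 CPM in KO cells without acetate and 1.09 ± 0.363 CPM with it, a difference opposite in sign to that of Il9 that was not called. The protease gene Cpa3 was at 0 to 0.466 CPM and the high-affinity IgE receptor gene Ms4a2 at 0.0344 to 0.585 CPM over all libraries, and Mcpt4, Fcer1a and Tpsb2 were not analysed here. The part of such cells in the Il9 result was not tested.

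Il13 encodes the cytokine that drives mucus production and tissue responses in allergy and worm infection. Its level was 2.27, 1.94, 1.79 and 2.03 CPM in WT untreated libraries 1 to 4 and 1.44, 1.91, 2.12 and 2.39 CPM in KO untreated libraries 1 to 4. The untreated groups overlapped, and their means of 2.01 ± 0.200 and 1.97 ± 0.402 CPM gave a log2 fold change of −0.028 (95% interval −0.52 to 0.47, adjusted p = 0.941). With acetate Il13 was at 4.65, 3.00, 2.45 and 3.29 CPM in WT libraries and at 3.81, 4.64, 6.42 and 3.23 CPM in KO libraries. Every acetate library was above every untreated library of either genotype. The KO acetate mean of 4.52 ± 1.39 CPM was 2.30-fold the KO untreated mean as fitted (95% interval 1.64 to 3.21, log2 fold change 1.20, SE 0.232, edgeR adjusted p = 0.00036). This call was kept in all 23 alternatives (0.98 to 1.33). The WT acetate mean of 3.35 ± 0.936 CPM was 1.67-fold the WT untreated level (log2 fold change 0.74, SE 0.230, adjusted p = 0.0371).

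That WT call was lost in 8 of 23 alternatives. It was lost without the 4 libraries with counts on the unnamed gene (0.79, adjusted p = 0.0606), without any single WT untreated library (0.68 to 0.80, adjusted p from 0.0521 to 0.0991) and without WT acetate 1, 2 or 4, of which leaving out library 1 gave the smallest value (0.53, adjusted p = 0.159). KO acetate cells were higher in Il13 than WT untreated cells (log2 fold change 1.17, SE 0.230, adjusted p = 0.00121, kept in all 23 alternatives). KO and WT cells with acetate overlapped (0.44, 95% interval −0.034 to 0.91, adjusted p = 0.309), and the acetate responses of the genotypes differed by 0.46 log2 units (95% interval −0.22 to 1.15, adjusted p = 0.394), which did not pass the test. Il13 rests on 37 to 181 counts per library.

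Il4, the cytokine that starts and maintains Th2 differentiation, was close to the detection limit, with 1 to 30 counts per library. Its level was 0.309, 0.0303, 0.235 and 0.0676 CPM in WT untreated libraries 1 to 4 and 0.738, 0.324, 0.396 and 0.368 CPM in KO untreated libraries 1 to 4. The KO untreated libraries all lay above the WT untreated ones, the nearest pair being 0.324 and 0.309 CPM. With acetate it was at 0.585, 0.0866, 0.885 and 0.158 CPM in WT and at 0.371, 0.262, 0.390 and 0.390 CPM in KO libraries, and these groups overlapped. No comparison of Il4 was called in the fit of the 4 group means. The log2 fold change of KO over WT without acetate was 1.48 (95% interval 0.11 to 2.85 before adjustment, edgeR adjusted p = 0.0838), and leaving out WT untreated 1 gave 1.97 with an adjusted p of 0.0499. For acetate it was 1.42 in WT cells (SE 0.648, adjusted p = 0.156) and −0.36 in KO cells (SE 0.605, adjusted p = 0.670). Neither acetate change passed the test after adjustment. The 95% interval in WT cells before adjustment was wide but held only positive values (0.058 to 2.77).

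Il4ra encodes the chain shared by the receptors of IL-4 and IL-13 and had the highest counts of the 6 genes, 5693 to 9545 per library. It stood at 302, 279, 263 and 254 CPM in WT untreated libraries 1 to 4 and at 245, 184, 208 and 245 CPM in KO untreated libraries 1 to 4. The groups did not overlap, with the lowest WT library at 254 CPM and the highest KO library at 245 CPM. The means were 274 ± 21.2 and 221 ± 29.7 CPM, and the KO level was 0.804-fold that of WT (log2 fold change −0.31, SE 0.0873, edgeR adjusted p = 0.00865). Without the 4 libraries with counts on the unnamed gene this difference was −0.23 and did not pass the test (adjusted p = 0.108). With acetate Il4ra was at 241, 246, 281 and 261 CPM in WT and 216, 225, 228 and 256 CPM in KO libraries, which overlapped (log2 fold change −0.16, 95% interval −0.34 to 0.027, adjusted p = 0.354). Acetate changed it by −0.093 in WT (95% interval −0.28 to 0.090, adjusted p = 0.537) and 0.066 in KO cells (95% interval −0.12 to 0.25, adjusted p = 0.573), neither past the test. KO acetate cells were lower than WT untreated cells by a small margin (−0.25, SE 0.0873, adjusted p = 0.0424), with overlapping libraries and a call lost in 9 of 23 alternatives, among them library totals as the only scaling (−0.20), leaving out the 4 libraries (−0.20), and leaving out WT untreated 1, 2 or 3, WT acetate 4, or KO acetate 1, 2 or 3 (−0.27 to −0.21).

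Il1rl1, which encodes the IL-33 receptor ST2, had 9 to 59 counts per library. It was at 0.722, 0.364, 0.705 and 0.304 CPM in WT untreated libraries 1 to 4 and at 0.661, 1.91, 1.51 and 1.58 CPM in KO untreated libraries 1 to 4. Libraries 2, 3 and 4 of KO untreated were above all WT untreated libraries, and library 1 lay among them. The mean rose from 0.524 ± 0.221 to 1.42 ± 0.533 CPM, a 2.70-fold higher level in KO (95% interval 1.59 to 4.57, log2 fold change 1.43, SE 0.364, edgeR adjusted p = 0.00485) that was called in all 23 alternatives (1.24 to 1.73). With acetate it was at 0.553, 0.433, 0.708 and 0.951 CPM in WT and at 0.808, 0.822, 0.957 and 1.31 CPM in KO libraries. These groups overlapped (log2 fold change 0.57, 95% interval −0.19 to 1.33, adjusted p = 0.414). Acetate gave −0.54 in KO cells (95% interval −1.27 to 0.19, adjusted p = 0.226) and 0.32 in WT cells (95% interval −0.47 to 1.11, adjusted p = 0.633), and the difference between these, −0.86, did not pass the test (adjusted p = 0.303). KO acetate libraries all lay above WT untreated libraries, but that difference did not pass either (0.89, adjusted p = 0.0815).

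ST2 is also carried by regulatory T cells, mast cells and group 2 innate lymphoid cells. Of 5 regulatory T cell markers, 1 was higher and 1 lower in KO without acetate, against 36.6% of all genes. Ikzf2, which encodes the transcription factor Helios, rose from 10.1 ± 1.45 to 19.0 ± 5.42 CPM (log2 fold change 0.91, edgeR adjusted p = 0.0027), the direction of Il1rl1. Ctla4, an inhibitory receptor gene, fell from 355 ± 56.8 to 162 ± 22.4 CPM (−1.13, adjusted p = 8.18e-05), and Foxp3, the defining factor, averaged 10.2 ± 2.93 and 7.59 ± 3.30 CPM and was not called. The list summed to between 1660.5 and 2026 CPM in KO untreated libraries, against 1981 to 2139.6 CPM in their WT counterparts, most of it from Il2ra (1637 ± 149 CPM in KO and 1714 ± 89.0 CPM in WT). Of the 6 innate lymphoid markers, Kit, Id2 and Il2ra were in the table, the last 2 also being T cell genes, and Klrg1, Arg1 and Ptgdr2 were not analysed here. The part of such cells in the Il1rl1 result was not tested.

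Gata3, the defining transcription factor of Th2 cells, was at 20.2, 18.7, 21.4 and 22.1 CPM in WT untreated libraries 1 to 4 and at 11.5, 15.6, 19.0 and 17.3 CPM in KO untreated libraries 1 to 4. The KO values were mostly lower, with library 3 of KO above library 2 of WT. The means of 20.6 ± 1.50 and 15.8 ± 3.22 CPM gave a log2 fold change of −0.38 (SE 0.131, edgeR adjusted p = 0.0304). This call was lost in 5 of 23 alternatives. It did not pass without the 4 libraries with counts on the unnamed gene (−0.20, adjusted p = 0.346), without WT untreated 3 or 4 (−0.36 and −0.35), or without KO untreated 1 or 2 (−0.25 and −0.37). With acetate Gata3 was at 24.5, 22.4, 21.3 and 21.6 CPM in WT and at 18.6, 23.2, 27.4 and 20.02 CPM in KO libraries. Acetate raised it in KO cells, with overlapping libraries (log2 fold change 0.49, SE 0.131, adjusted p = 0.00521), and not past the test without the 4 libraries (0.27, adjusted p = 0.157). In WT cells the log2 fold change was 0.12 (95% interval −0.15 to 0.40, adjusted p = 0.589), and the KO acetate mean of 22.3 ± 3.91 CPM stood beside 22.4 ± 1.42 CPM in WT acetate (log2 fold change −0.0094, 95% interval −0.28 to 0.26, adjusted p = 0.979).

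**Figure D2:**
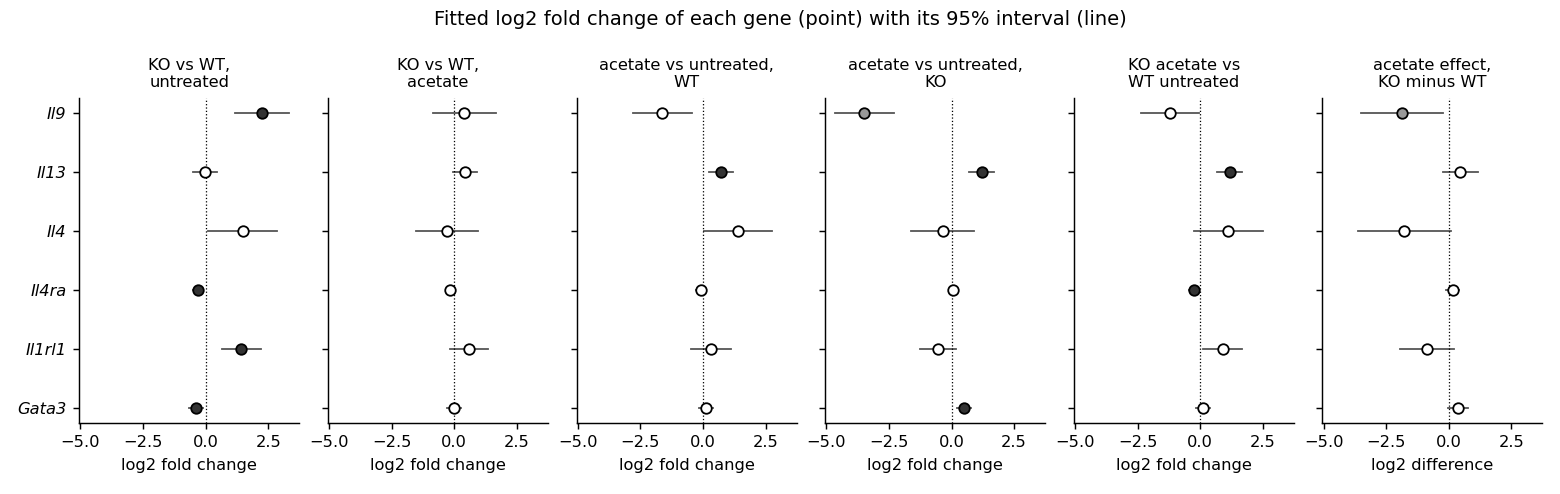
Fitted log2 fold change (point) and its 95% interval (line) of each gene in each comparison; the last panel is the log2 difference between the acetate responses of KO and WT cells. Black points passed the test, white points did not and grey points (Il9 in 2 panels) were given no test. Il9 had the largest value without acetate (2.26), and no gene passed in KO against WT with acetate.

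The genes did not form 1 common pattern over the 16 libraries. On log2 CPM, Gata3 and Il13 had a Pearson correlation of 0.72, while Il9 had −0.79 with Gata3 and −0.70 with Il13. Il4ra and Il1rl1 had −0.54, and Il4 had between −0.23 and 0.49 with each of the others. These values describe 16 libraries that fall into 4 groups, so group differences are part of each one. Within groups, the coefficient of variation was 6.34% to 20.4% for Gata3 and 7.03% to 13.5% for Il4ra, against 34.2% to 65.9% for Il9 and 17.5% to 87.5% for Il4. Genes most like each were sought among 9122 tested, named genes that averaged 5 CPM or more. Predicted genes, sex-linked genes, and immunoglobulin and T cell receptor segments were left out. Those most like Il9 were Slfn2 and Clcn4 (0.97 each), Neto2 (0.97) and Eif4g2 (0.96). Those most like Gata3 were Itpr1, St3gal2 and Rasal1 (0.90 each) and Acss1 (0.86). Those most like Il13 were Wls, Slc35a5, Mast4 and Rab11fip1 (0.87 to 0.88), and those most like Il4ra were Manf (0.96), Cabin1, Borcs8 and Mbd2 (0.94 each). Il4 and Il1rl1 were too low for such a search.

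The wider type 2 and Th9 pathway was described with 10 lists holding 100 genes besides the 6, of which 88 were tested. Without acetate, 22 were higher and 15 lower in KO (42.0%, against 36.6% of all genes). Acetate raised 9 and lowered 15 in WT cells (27.3% against 15.4%) and raised 23 and lowered 32 in KO cells (62.5% against 43.7%). With acetate in both genotypes, 3 were higher and 0 lower in KO by edgeR (3.41%, against 1.00% of all genes; 9 and 11 at an unadjusted p under 0.05). The comparisons share groups, so their counts are not independent. The lists were chosen with earlier results of these data known, so these shares are a description and not a test of the pathway.

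Of 5 tested cytokine genes besides Il4, Il9 and Il13, 1 was higher in KO without acetate (36.6% of all genes were called), and acetate raised 1 in each genotype (15.4% in WT, 43.7% in KO) and lowered 1 in WT cells. Il3, a growth factor of mast cells and basophils, was at 2.34, 4.27, 2.73 and 2.03 CPM in WT untreated and 3.46, 4.08, 2.70 and 2.72 CPM in KO untreated libraries. With acetate it was at 14.2, 19.7, 5.07 and 8.63 CPM in WT and 14.6, 28.7, 14.2 and 15.9 CPM in KO libraries. Like Il13, Il3 rose with acetate in both genotypes without overlap (log2 fold changes 2.06 in WT and 2.50 in KO, edgeR adjusted p = 0.00373 and 0.000192). Csf2, which encodes GM-CSF, was higher in KO without acetate (7.11 ± 2.03 to 26.4 ± 8.34 CPM, log2 fold change 1.89, adjusted p = 0.000477), as Il9 was, but with acetate it also stood higher in KO (14.2 ± 5.55 against 43.1 ± 6.79 CPM, 1.60, adjusted p = 0.0297). That second call was lost in 6 of 23 alternatives, without WT acetate 2, 3 or 4, without KO acetate 1 or 3, and with only the 2 groups in the fit. Areg, the epidermal growth factor family member amphiregulin, fell with acetate in WT cells (5.29 ± 0.635 to 2.38 ± 0.307 CPM, log2 fold change −1.15, adjusted p = 0.000103) and stood at 5.84 ± 1.02 and 5.62 ± 0.862 CPM in the KO groups, so its response differed between genotypes (1.10, adjusted p = 0.00375). Il10 and Il24 did not pass in any comparison, and Il5 and Il31 were not analysed here.

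**Figure D3:**
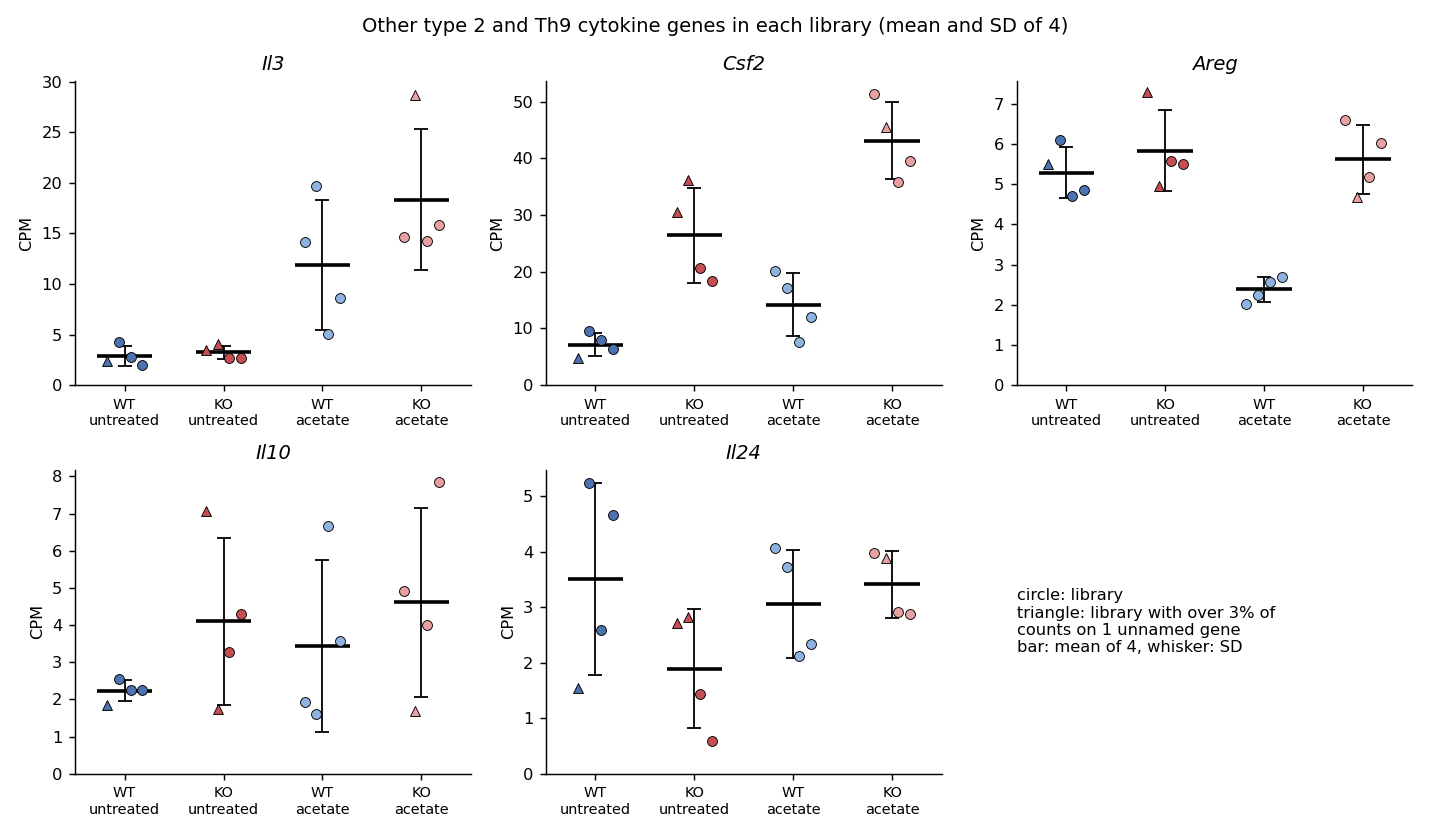
CPM of 5 further type 2 and Th9 cytokine genes in each library (points), with the mean (bar) and SD (whisker) of 4. Il3 stood at 5.07 to 28.7 CPM in acetate libraries and 2.03 to 4.27 CPM in untreated ones, and Areg was lowest in WT acetate libraries (2.02 to 2.69 CPM).

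Among 5 tested receptor genes besides Il4ra and Il1rl1, 2 were higher and 1 lower in KO without acetate, against 36.6% of all genes. Without the 4 libraries with counts on the unnamed gene, none of these genes nor Il4ra was called there, while Il1rl1 still was (log2 fold change 1.73, edgeR adjusted p = 0.00851). Il2rg, the common chain that pairs with IL-4Rα and the IL-9 receptor, fell from 416 ± 35.1 to 321 ± 36.9 CPM (log2 fold change −0.37, edgeR adjusted p = 0.00165). Crlf2, the receptor of the alarmin TSLP, fell with acetate in WT (22.5 ± 2.36 to 15.005 ± 1.49 CPM, −0.59, adjusted p = 0.00146) and in KO cells (29.2 ± 3.38 to 15.2 ± 2.17 CPM, −0.94, adjusted p = 1.87e-06). Il1rap, the partner chain of ST2, was higher in KO without acetate (13.3 ± 0.56 to 16.6 ± 1.08 CPM, 0.31, adjusted p = 0.015), a call lost in 3 of 23 alternatives. Il9r, the receptor of IL-9, averaged 0.445 ± 0.219 CPM without acetate in WT, against 0.764 ± 0.171 CPM in KO, and passed in no comparison.

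Of 12 genes that relay IL-4 and IL-33 signals, 3 were higher and 1 lower in KO without acetate, against 36.6% of all genes. Acetate lowered 4 of them in WT cells (15.4% of all genes were called), and in KO cells it lowered 6 and raised 1 (43.7%). Jak3, the kinase bound to the common chain, was higher in KO (164 ± 9.44 to 214 ± 9.33 CPM, log2 fold change 0.39, edgeR adjusted p = 2.91e-05) and fell with acetate in KO (−0.65, adjusted p = 3.94e-08). It was also called lower with acetate in WT (164 ± 9.44 to 132 ± 5.30 CPM). Stat5a was higher in KO without acetate (0.58, adjusted p = 0.000865), and Myd88, the adaptor of ST2, fell with acetate in KO (−0.56, adjusted p = 0.000112). Myd88 was also called lower with acetate in WT (66.5 ± 5.23 to 51.3 ± 7.16 CPM), a call lost in 3 of 23 alternatives. Stat6, which carries the IL-4 signal, was not called in KO against WT or with acetate in KO cells, and its call with acetate in WT (−0.16, adjusted p = 0.0404) was lost in 8 of 23 alternatives. Of 8 inhibitors, 2 were higher and 2 lower in KO without acetate, against 36.6% of all genes. Socs2 fell with acetate in KO (95.3 ± 23.3 to 28.9 ± 4.43 CPM, −1.72, adjusted p = 0.000125). It was also called lower with acetate in WT (80.0 ± 22.5 to 39.6 ± 12.2 CPM), a call lost in 2 of 23 alternatives. Ptpn6, the phosphatase SHP-1, was lower in KO without acetate (−0.40, adjusted p = 2.63e-06) and rose with acetate in KO (0.37, adjusted p = 2.93e-06).

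Of 15 tested Th2 transcription factors besides Gata3, 2 were higher and 3 lower in KO without acetate, against 36.6% of all genes. Maf, which activates Il4, rose from 74.5 ± 5.81 to 139 ± 30.7 CPM (log2 fold change 0.90, edgeR adjusted p = 0.000111), and Pparg rose from 1.16 ± 0.419 to 2.79 ± 0.806 CPM (1.26, adjusted p = 0.00452). Satb1, which folds the Th2 cytokine locus, fell with the same sign as Gata3 (−0.65, adjusted p = 3.74e-06) and also rose with acetate in KO cells (0.43, adjusted p = 0.000145). Of 18 tested genes of the Th9 list besides Gata3, 8 were higher and 1 lower in KO without acetate (median log2 fold change 0.034), against 36.6% of all genes, and acetate lowered 8 and raised 3 in KO cells (median −0.12), against 43.7%. Batf3 had the sign of Il9 in both contrasts, with means of 4.06 ± 0.378 and 12.2 ± 3.22 CPM in WT and KO cells without acetate and 2.87 ± 1.47 and 2.89 ± 0.431 CPM with it (1.59, adjusted p = 0.000476, and −2.08, adjusted p = 3.17e-05). Id3, known to restrain Il9, and Relb and Irf1 were also higher in KO (0.90, 0.39 and 0.40) and lower with acetate in KO (−0.47, −0.78 and −0.75). Hif1a, the oxygen-sensing factor, had the opposite signs (−1.03, adjusted p = 8.98e-05, and 1.16, adjusted p = 1.55e-05). With acetate in WT, Relb was called lower and Id3 higher, the Id3 call being lost in 5 of 23 alternatives.

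Of 13 genes known to restrain the Th2 programme, 2 were higher and 2 lower in KO without acetate, against 36.6% of all genes. Acetate raised 3 of them in WT cells (15.4% of all genes were called), and in KO cells it raised 5 and lowered 2 (43.7%). Sox4 rose with acetate in WT (8.19 ± 0.416 to 21.7 ± 3.13 CPM, log2 fold change 1.40, edgeR adjusted p = 1.43e-07) and in KO cells (11.2 ± 1.13 to 37.9 ± 1.72 CPM, 1.76, adjusted p = 2.89e-10), and with Csf2 and Areg it was 1 of the 3 pathway genes higher in KO than in WT with acetate (0.81, adjusted p = 0.000469). Tbx21, the Th1 factor that opposes GATA3, rose with acetate in both genotypes (1.00, adjusted p = 0.000995, and 1.13, adjusted p = 6.78e-05), and so did Bcl6 (0.83, adjusted p = 1.11e-05, and 1.08, adjusted p = 4.12e-08). Runx3, which silences Il4, was lower in KO without acetate (−0.77, adjusted p = 2.03e-06) and rose with acetate in KO cells (0.70, adjusted p = 2.4e-06). Of 9 tested Th2 chemokine receptors and surface genes, 1 was higher and 3 lower in KO without acetate, against 36.6% of all genes. Ccr8 had the signs of Gata3, lower in KO (−0.73, adjusted p = 0.000988) and raised by acetate in WT (0.62, adjusted p = 0.00726) and KO cells (1.21, adjusted p = 5.82e-06).

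**Figure D4:**
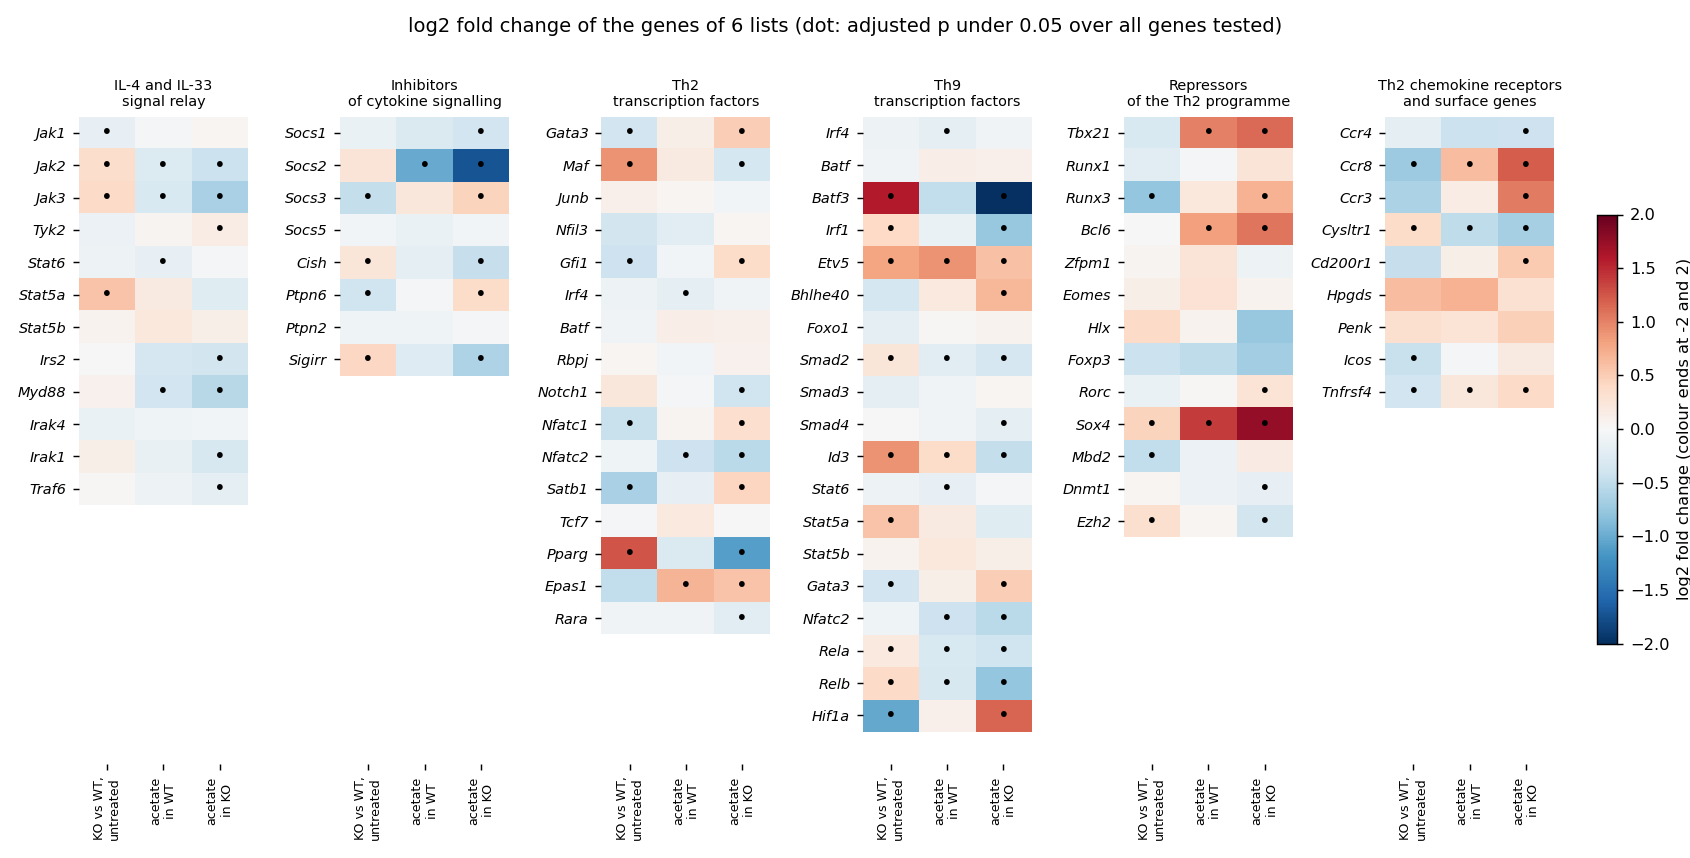
Colour map of fitted log2 fold changes of the genes of 6 lists (rows) in 3 comparisons (columns), red for higher and blue for lower; a dot marks a call and colours end at −2 and 2. Genes held by 2 lists appear 2 times. In the Th9 list Batf3 was red in KO without acetate and blue with acetate in KO (1.59 and −2.08), and Hif1a was the other way (−1.03 and 1.16).

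Il4 and Il13 lie side by side on chromosome 11, and in the RefSeq order Kif3a and Septin8 precede Il4 while Rad50, Il5 and Irf1 follow Il13. The 5 measured neighbours did not follow the sign of Il13 as a group. With acetate in KO cells, where Il13 had a log2 fold change of 1.20, Rad50, which holds the locus control region of the cluster, fell (−0.51, SE 0.0904, edgeR adjusted p = 0.000147) and Irf1 fell (−0.75, SE 0.078, adjusted p = 4.14e-07), while Kif3a rose (0.40, SE 0.0942, adjusted p = 0.00216). Rad50 was higher in KO without acetate (0.40, adjusted p = 0.00214), where Il13 had −0.028. Il1rl1 lies on chromosome 1 among the receptor genes Il1r2, Il1r1, Il1rl2, Il18r1 and Il18rap. Of these 5, Il18rap had the sign of Il1rl1 in KO without acetate (11.7 ± 1.85 to 31.2 ± 4.12 CPM, 1.41, SE 0.126, adjusted p = 2.55e-07), while Il1r1 (−0.48, adjusted p = 0.00814) and Il1rl2 (−0.39, adjusted p = 0.0152) were lower. The Il1rl2 call was lost in 3 of 23 alternatives.

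**Figure D5:**
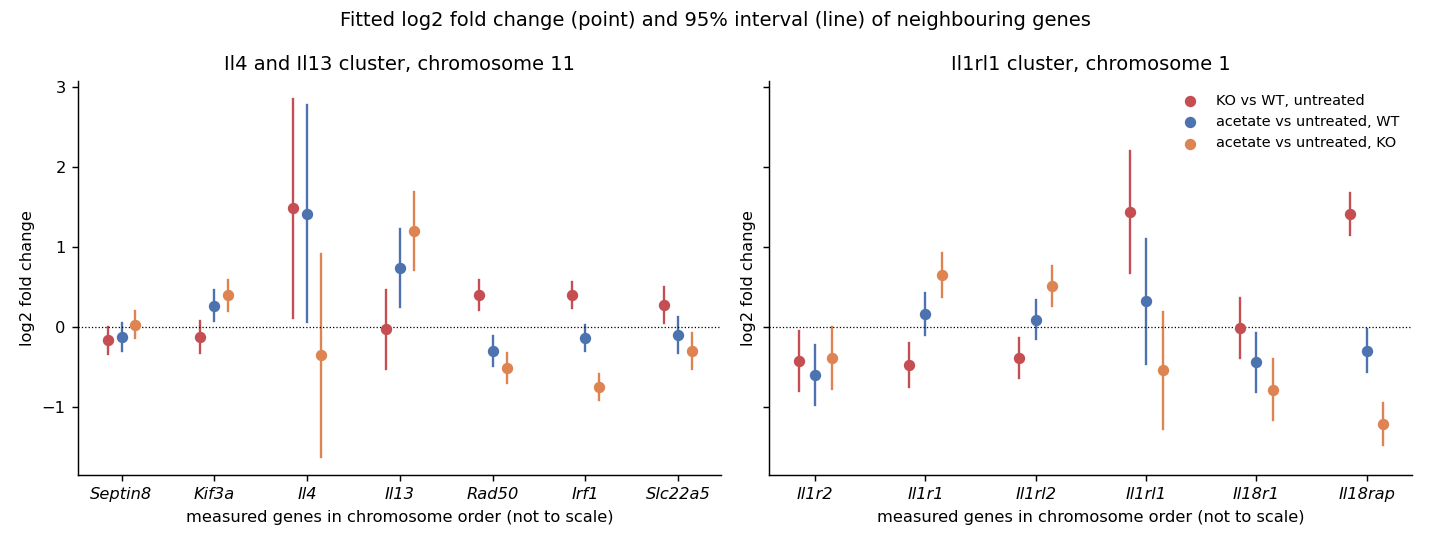
Fitted log2 fold change (point) and 95% interval (line) of the measured genes around Il4 and Il13 (left) and Il1rl1 (right), in chromosome order and not to scale, for KO against WT without acetate (red), acetate in WT (blue) and acetate in KO (orange). With acetate in KO, Il13 lay above 0 (1.20) beside Rad50 below it (−0.51), and without acetate Il1rl1 (1.43) and Il18rap (1.41) both lay above 0 in KO against WT.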

How the data were processed

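RNA from 16 Th17 cultures was sequenced from mRNA libraries made with a stranded kit, per the labels' protocols. The authors deposited 1 table of estimated counts per gene, whole numbers that fit unscaled counts. Salmon, DESeq2 and DESeq are named in the submitters' processing notes, with no version or role. For the genome build and annotation, the answer is not given in the sources used here. Every one of the 15571 genes had at least 10 counts in 3 libraries, and 350 identifiers had no name in the name table. Symbols were matched on identifiers without their versions, since only 25 identifiers carried the table's version.

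The counts were fitted with edgeR 4.0.16 in R 4.3.3 (TMM scaling, filterByExpr, robust quasi-likelihood fit of 4 group means, Benjamini-Hochberg adjustment over 14985 genes, call at an adjusted p under 0.05), after the script was tested on simulated data. Libraries of a group differed by more than counting noise in every pair (chi-square per degree of freedom 6.07 or more), so none was treated as a duplicate. Alternatives were DESeq2 1.42.0, library totals or RLE scaling, no filter, only the groups compared, a replicate block, leaving out each of the 16 libraries, and leaving out the 4 libraries with over 3% of counts on 1 gene. The gene list, the pathway and marker lists and the test settings were chosen with earlier results of these data known. All 6 genes are named in every comparison, with up to 4 genes per pathway list and comparison by smallest adjusted p, some added to complete a role, and the 4 genes most correlated with each of the 6 that averaged at least 1 CPM (log2 CPM with a prior count of 2).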

Additional observations from a re-analysis of the deposited data

Results flagged for a closer look

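Of the 244 groups of 4 libraries looked at for the 6 genes and the named pathway genes, 14 held a library that stood apart from the other 3 by Dixon's criterion, close to the 1 in 20 that chance gives. Among the 6 genes there was 1 such value, Il4 in KO acetate cells, where library 2, a library with a large share of counts on the unnamed gene, was at 0.262 CPM below the rest. The lone high values were 28.7 CPM for Il3 in KO acetate, 143.8 CPM for Mbd2 in KO acetate, 12.9 CPM for Sox4 and 130.1 CPM for Rela in KO untreated, and 139.7 CPM for Jak3, 470.3 CPM for Stat5a and 32.7 CPM for Bcl6 in WT acetate cells. In WT untreated cells they were 78.5 CPM for Il7r, 28.1 CPM for Tbx21, 128 CPM for Runx3, 185 CPM for Ccr4 and 38.2 CPM for Il1r1. Rela also had a lone low value of 80.7 CPM in KO acetate cells.

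For 12 named pathway genes and the marker gene Kit the acetate response differed between KO and WT cells by edgeR's interaction test. The log2 response was higher in KO by 1.10 for Areg, 0.40 for Ptpn6, 0.59 for Satb1, 0.49 for Runx3 and 1.07 for Hif1a. The differences of KO minus WT response were −0.34 for Jak3, −0.41 for Ezh2, −1.58 for Batf3, −0.61 for Irf1, −0.84 for Id3, −0.45 for Relb, −0.91 for Il18rap and −1.65 for Kit. The call of Runx3 was lost without the 4 libraries with a large share of counts on the unnamed gene, those of Jak3 and Ezh2 with library totals as the only scaling, and that of Batf3 without those 4 libraries or without KO acetate 3.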

How the results depend on the processing

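Of 819 recomputed log2 fold changes of the 6 genes, 782 kept their direction and side of the threshold, 24 no longer passed, 4 newly passed and 9 changed sign. These counts include Il9 in KO acetate against KO untreated and in the interaction, which were given no test. For those values the side of the threshold is not a result. Leaving out the 4 libraries where 1 gene took over 3% of counts, 3361 genes in place of 5481 were called between KO and WT without acetate (2 of the 6 genes in place of 4), 535 in place of 150 with acetate, and 1010 in place of 1785 for the interaction. The same setting left 0 of the 6 with acetate in WT, beside 1765 genes called. It left 1 of the 5 given a test with acetate in KO (5146 genes called). Between KO acetate and WT untreated it left 1 of the 6 (2995 genes called). In KO against WT with acetate, DESeq2 called 826 genes, library totals alone 78 and a fit of only the groups compared 16. DESeq2 called 2 of the 6 with acetate in WT, beside 2749 genes called. Library totals alone called 1 of the 6 between KO acetate and WT untreated, beside 3165 genes called. The causes were not tested.

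Leaving out 1 library at a time gave 21 (without WT acetate 3) to 661 genes (without KO acetate 2) for KO against WT with acetate. For acetate in WT it gave 0 to 2 of the 6, beside 1569 to 2370 genes called. For KO acetate against WT untreated it gave 1 to 2 of the 6, beside 2944 to 4097 genes called. It moved the KO against WT log2 fold change of Il13 without acetate between −0.13 and 0.094 (0.23 without the 4 libraries), that of Gata3 with acetate between −0.13 and 0.068 and that of Il4 with acetate between −0.64 and 0.35. It moved the change of Il4ra with acetate in KO between −0.019 and 0.11, and that of Gata3 between KO acetate and WT untreated between −0.0021 and 0.19. None of these was called. Library totals as the only scaling shifted the directions of calls over all genes, to 1914 higher and 3217 lower for KO against WT without acetate (2699 and 2782 with TMM), 28 and 50 with acetate (73 and 77), 1196 and 558 for acetate in WT (1183 and 1132), 4229 and 2085 in KO (3314 and 3236), 1911 and 1254 for KO acetate against WT untreated (1935 and 2019) and 939 and 442 for the interaction (955 and 830).

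Replicate numbers are shared between groups. Same-numbered libraries had correlations of −0.08 to 0.23 (24 pairs, 9 over 0.1), so they did not deviate together throughout. Their median correlation was 0.048, against −0.013 (range −0.195 to 0.198) for pairs with different numbers. Of the 16 libraries, 9 correlated best with their own number. Whether the numbers mark a shared source was not tested, and the main fit, which has no replicate block, does not allow for one. With the replicate block, 408 genes were called in KO against WT with acetate, 5886 without acetate, and Il4 passed there (1.65, adjusted p = 0.0222). Depth limits the precision of Il4, at 1 to 30 counts per library, and of Il1rl1, at 9 to 59.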
